A study of Mus musculus with 4 samples.

Results

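Chromosome 2 of the mouse genome (mm9) was split into 364 bins of 500 kb, counted from its first base, and the reads at CpG sites were summed in each bin of each library. A bin's share was this sum divided by the sum over all 19 autosomes of the same library, and its ratio was the share in KO cells over the share in WT cells grown in the same medium. The autosomes held 4955 bins in all, and the 4591 bins outside chromosome 2 served for comparison. Reduced representation bisulfite sequencing (RRBS-seq) had been done on 4 samples of mouse embryonic stem (ES) cells with 1 library each, so no ratio had a replicate check and no test between genotypes was made. The Chr4-cl KO cells lacked a cluster of KRAB zinc finger protein genes on chromosome 4 and the Chr4-cl WT cells carried it. Both were grown either in serum-containing medium with LIF (serum) or for 1 week in 2i medium with vitamin C (2i + Vit. C). The methods give B6;129-Gt(ROSA)26Sor tm1(cre/ERT)Nat/J mice, which carry a Cre-ERT transgene at the Rosa26 locus, as the origin of the KO cells, and state that KO and WT clones were picked individually after nucleofection. Whether a library held 1 clone or several is not given in the sources used here. The genotype labels were checked at the deleted cluster. In the 4 bins that lay wholly inside it (chr4:145000001-147000000), WT cells had 75940 reads in serum and 91853 in 2i + Vit. C, and KO cells had 732 and 1323. The ratio over these 4 bins was 0.00757 in serum and 0.0317 in 2i + Vit. C, which gives the scale of a known loss.

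In RRBS-seq, MspI cuts DNA at every CCGG whatever its methylation, and short fragments between neighbouring cuts are converted and sequenced, so reads pile up in CpG islands and promoters and leave most of the genome thin. The number of reads at a site therefore reflects the DNA present, the fragment's length and base composition, and how well it amplified and mapped, and it is not a direct measure of copy number. Chromosome 2 of the mouse carries the HoxD genes, several imprinted loci (Gnas, Nnat, Sfmbt2) and, near its far end, the Chr2-cl cluster of KRAB zinc finger protein genes, which was not deleted in these cells.

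In the bins named later, the fragment with most reads supplied from 19.0% to 72.9% of the bin's reads. This share was not worked out for other bins. The 3 below were each the fragment with most reads in a bin described later, and each lies outside annotated UTRs. They are given 5′ to 3′ on the forward strand of mm9, with the MspI sites at both ends in capitals.
Pde1a intron, chr2:79955665-79955872: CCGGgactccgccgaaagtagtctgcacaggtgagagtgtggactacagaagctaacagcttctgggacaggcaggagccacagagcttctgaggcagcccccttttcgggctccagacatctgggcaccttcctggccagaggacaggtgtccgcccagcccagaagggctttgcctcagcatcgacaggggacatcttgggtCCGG
Tbr1 exon (coding), chr2:61649969-61650179: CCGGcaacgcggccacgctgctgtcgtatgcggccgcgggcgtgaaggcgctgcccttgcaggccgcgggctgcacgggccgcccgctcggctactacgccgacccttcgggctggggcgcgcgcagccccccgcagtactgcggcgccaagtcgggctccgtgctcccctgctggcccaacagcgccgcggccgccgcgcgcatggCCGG
Gm13889 exon, chr2:93796501-93796744: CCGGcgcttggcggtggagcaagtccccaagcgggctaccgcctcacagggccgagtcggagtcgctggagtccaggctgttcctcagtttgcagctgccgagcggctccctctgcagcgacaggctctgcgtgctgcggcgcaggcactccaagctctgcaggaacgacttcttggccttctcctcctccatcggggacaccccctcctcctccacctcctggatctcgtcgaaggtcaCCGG
They are 208, 211 and 244 bases long and hold 7, 35 and 19 CpG dinucleotides. They supplied 23.1%, 27.7% and 19.0% of the reads of their bins over the 4 libraries.

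After positions listed more than once and the 0.1% of sites with most reads in each library were dropped, chromosome 2 had 4705435 reads in WT serum, 6509583 in KO serum, 6634095 in WT 2i + Vit. C and 3110810 in KO 2i + Vit. C. A read was counted at every CpG site it covered, so intervals from these sums cover counting error only and are too narrow. The number of chromosome 2 sites with reads ran the other way, from 160725 in WT 2i + Vit. C to 413006 in KO 2i + Vit. C. The mean number of reads per site was accordingly 41.3 in the first and 7.53 in the second library, with 17.6 in WT serum and 31.5 in KO serum. The median bin held 7095 reads in WT serum, 9442 in KO serum, 10544 in WT 2i + Vit. C and 5260 in KO 2i + Vit. C. The first 6 bins held no read in any library, which left 358 bins with a ratio in both media, and 4461 of the bins of the other autosomes had one.

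In serum, chromosome 2 took a larger share of the reads in KO than in WT cells and stood above each of the other 18 autosomes. Its share was 7.50% in WT serum (exact 95% binomial interval 7.49 to 7.50) and 8.14% in KO serum (8.13 to 8.15), a ratio of 1.09 (1.08 to 1.09). The ratios of the other autosomes ran from 0.957 to 1.03. The median chromosome 2 bin had a ratio of 1.05, and the order-statistic 95% interval of the median over bins was 1.01 to 1.07. The median over bins of the other autosomes was 0.911, so the chromosome 2 median was 1.15 times as high (a difference of 0.21 on the log2 scale). The single bins spread more widely than this, with an SD of 0.39 on the log2 scale and quartiles of 0.897 and 1.17. Of the 358 bins, 49 (13.7%) had a high ratio, set at the inverse of 0.8 or more, against 5.94% of the bins of the other autosomes. A low ratio, of 0.8 or less, was found at 50 bins (14%), against 29.6% elsewhere. The median autosomal bin in serum lay below 1, and 252 bins of chromosome 2 (70.4%) were above it, against 48.4% of other bins. With all ratios divided by that median, 95 bins were high and 29 low on chromosome 2, against 12.3% and 18.6% of all autosomal bins. This changed the share of high bins among those past either fold from 49.5% to 76.6%, and on the other autosomes from 16.7% to 36.5%.

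**Figure D1:**
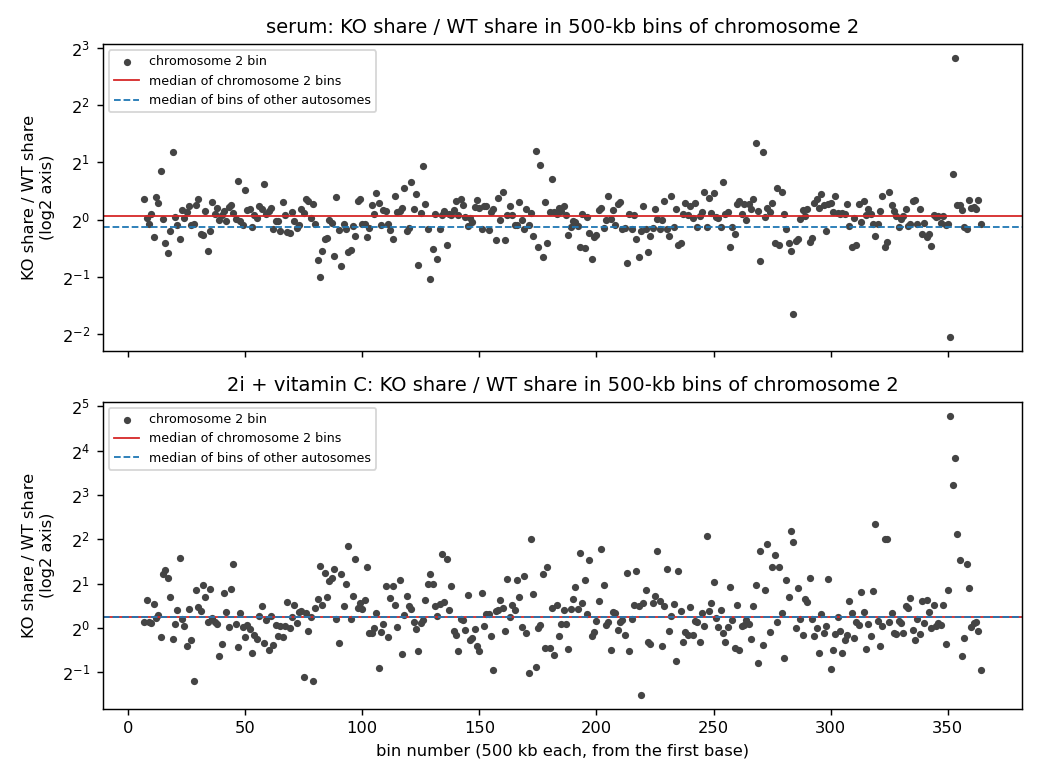
Ratio of the KO share to the WT share of reads (log2 axis) in each 500-kb bin of chromosome 2, by bin number, in serum (upper panel) and 2i + vitamin C (lower panel). Points are bins, the solid line is their median and the dashed line is the median over bins of the other autosomes. The solid line lies above the dashed one in serum (1.05 against 0.911), and the lines overlie each other in 2i + vitamin C (1.18 and 1.18).

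In 2i + Vit. C the same calculation did not set chromosome 2 apart. Its share was 7.91% in WT cells (7.91 to 7.92) and 8.16% in KO cells (8.15 to 8.17), a ratio of 1.03 (1.03 to 1.03) that was the sixth highest of the 19 autosomes, whose other ratios ran from 0.924 to 1.10. The median chromosome 2 bin had a ratio of 1.18 (1.11 to 1.26), and the median over other bins was also 1.18. The spread of bins was larger than in serum, with an SD of 0.73 on the log2 scale. High ratios were found at 165 bins (46.1%), against 44.5% elsewhere, and low ratios at 48 bins (13.4%), against 12.8%. With 179 of 358 bins (50%) above the median autosomal bin, against 50% of the others, chromosome 2 was at the background. Division by the median autosomal bin left 106 high and 90 low bins on chromosome 2, against 30.3% and 26.3% of all autosomal bins, and moved the share of high bins from 77.5% to 54.1%, against 77.7% and 53.6% on the other autosomes.

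**Figure D2:**
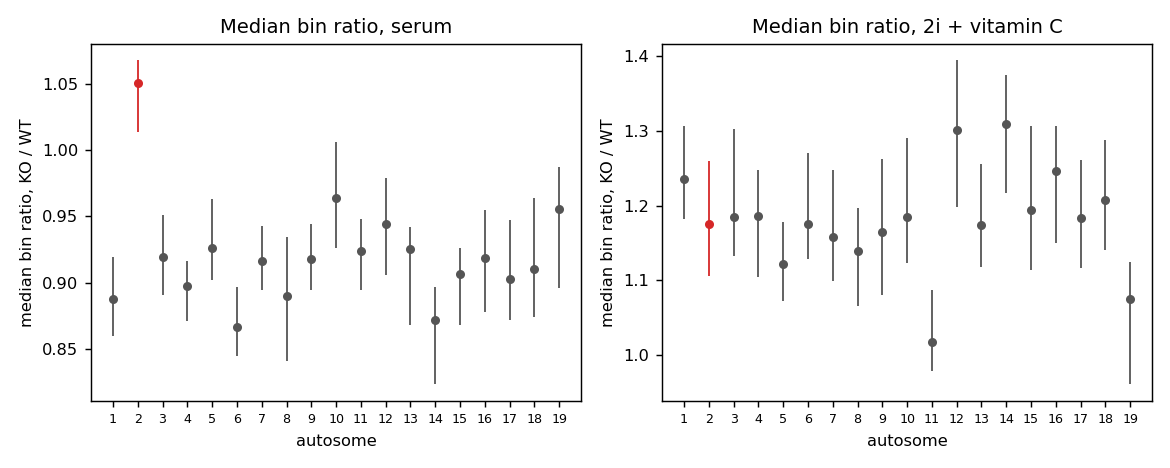
Median bin ratio (KO share over WT share) of each autosome in serum (left) and 2i + vitamin C (right), with chromosome 2 in red. Bars are order-statistic 95% intervals of the median over bins and do not stand for replicates. In serum chromosome 2 is at 1.05 and the highest of the others is chromosome 10 at 0.964, whereas in 2i + vitamin C chromosome 2, at 1.18, lies within the range of the others.

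Few bins were past the fold in the same direction in both media. Of the 358 bins, 19 (5.31%) were high in both, against 2.17% elsewhere, and 2 (0.559%) were low in both, against 2.15%. Above the median autosomal bin of both media were 106 bins (29.6%), against 17.6%. Opposite directions were found as well, with 5 bins high in serum and low in 2i + Vit. C (1.4%, against 1.48%) and 38 bins low in serum and high in 2i + Vit. C (10.6%, against 20.1%). Across the 358 bins the log2 ratios of the media had a Pearson r of -0.25 and a Spearman rho of -0.30, and across the other 4461 bins -0.19 and -0.35. The 4 libraries of these ratios differ between media, but the bins share composition and depth, so these are descriptions. In serum the ratio rose with the number of CCGG sites of a bin (Spearman rho 0.25 on chromosome 2 and 0.36 elsewhere), and in 2i + Vit. C it fell (-0.39 and -0.46).

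The excess in serum was present at bins of every density of MspI sites. When all autosomal bins were split into 5 equal classes by their number of CCGG sites, the chromosome 2 median was 1.14, 1.19, 1.18, 1.11 and 1.09 times that of the other bins, from the sparsest to the densest class, with 67 to 77 chromosome 2 bins in each. The corresponding values in 2i + Vit. C were 1.03, 0.952, 0.918, 1.04 and 1.08, on both sides of 1. Along the chromosome, the median ratio in serum of the 10 successive 20-Mb blocks, divided by the median autosomal bin, ran from 1.02 (40 to 60 Mb) to 1.252 (the 4 bins beyond 180 Mb) and was above 1 in all 10. In 2i + Vit. C it ran from 0.861 in the same last block to 1.24 at 40 to 60 Mb. Blocks of the other autosomes were not worked out.

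The libraries differed in the lengths of the MspI fragments at which reads were counted. The counts of WT serum and of KO 2i + Vit. C were each deposited as 2 parts joined end to end. The shares by length were not worked out without the second part. Of the chromosome 2 reads at sites inside MspI fragments, fragments of 1000 bases or longer held 4.41% in WT serum, 1.63% in KO serum, 0.749% in WT 2i + Vit. C and 23.2% in KO 2i + Vit. C. Fragments of 200 to 299 bases held 32.5%, 27.2%, 35.1% and 15.4% in the same order. On the other autosomes the shares of fragments of 200 to 299 bases were 33.8%, 27.6%, 36.6% and 17.3%, close to those of chromosome 2. Fragments of 1000 bases or longer held 1.65% in KO serum, 0.793% in WT 2i + Vit. C and 15.4% in KO 2i + Vit. C there. The share of these longest fragments was thus larger on chromosome 2 in KO 2i + Vit. C, and slightly larger in WT serum. These shares were taken over all sites, with the very highly covered ones that the bins left out. On chromosome 2 those held 15.1% of the reads in KO 2i + Vit. C and 2.24% in WT 2i + Vit. C. In KO 2i + Vit. C, 1 site in a chromosome 2 fragment of 2359 bases (bin 198, described later) had 10060 reads. With all sites kept, the ratio of that bin was 112. How much of the larger share came from this fragment was not worked out, so the larger share may not hold along the chromosome.

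**Figure D3:**
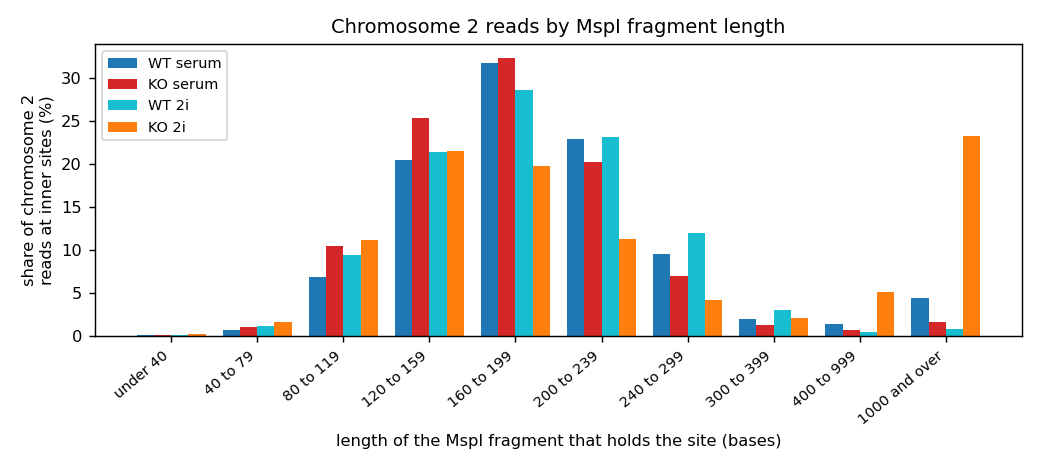
Share of chromosome 2 reads at inner CpG sites (percent) by the length in bases of the MspI fragment that holds the site, for the 4 libraries. The KO 2i library has 23.2% of its reads in fragments of 1000 bases or more, against 0.749% in the WT 2i library. The very highly covered sites are included, such as the site of bin 198 with 10060 reads in the KO 2i library.

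To set aside both this difference and the repeated counting of one read, 1 inner site was taken per MspI fragment, from fragments with at least 10 reads at that site in all 4 libraries, and each log2 ratio was centred on the median of the autosomal fragments of the same twentieth of length. This measure was chosen after the values by bin had been seen, and it used the very highly covered sites that the bins left out. It kept 5690 fragments on chromosome 2 and 66740 on the other autosomes. In serum the median KO/WT ratio of chromosome 2 fragments was 0.16 on the log2 scale (order-statistic 95% interval 0.15 to 0.17), which is 1.12-fold, with an SD of 0.55 over fragments. The medians of the other autosomes ran from -0.08 (chromosome 6) to 0.05 (chromosome 12). Above 0 lay 63.4% of the chromosome 2 fragments, against 48.8% of the others. In 2i + Vit. C the chromosome 2 median was 0.08 (0.05 to 0.11), or 1.05-fold, with an SD of 0.96. It was the highest of the 19 here too, and its interval overlapped those of others, such as chromosome 18, the next at 0.05 (0.00092 to 0.09). There 53.7% of chromosome 2 fragments lay above 0, against 49.6% of the others. The chromosome 2 median in serum exceeded that of the other autosomes in all 20 length classes, by 0.11 to 0.25 before centring, and in 2i + Vit. C in 19 of 20, by -0.10 to 0.23.

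**Figure D4:**
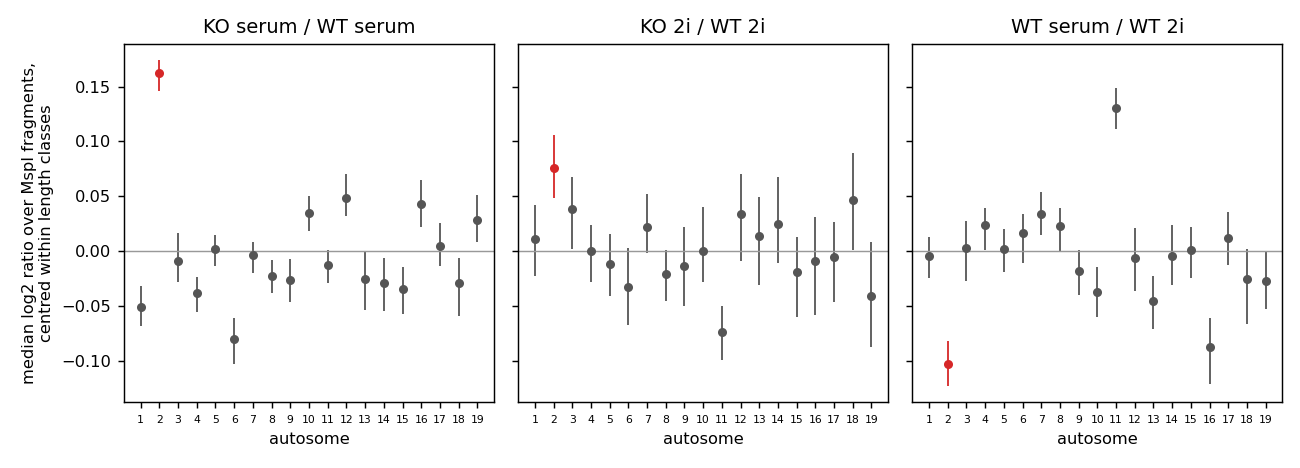
Median log2 ratio of reads over MspI fragments of each autosome, centred within length classes, for KO over WT in serum, KO over WT in 2i and WT serum over WT 2i, with chromosome 2 in red. Bars are order-statistic 95% intervals over fragments of 1 library pair. Chromosome 2 is at 0.16 and 0.08, the highest point of the first and second panels, and at -0.10, the lowest of the third.

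The same fragments were compared between the other pairs of libraries, which share libraries with each other and with the pairs above. Between media within a genotype, the chromosome 2 median was -0.10 (-0.12 to -0.08) for WT serum over WT 2i + Vit. C, the lowest of the 19 autosomes, and 0.00 (-0.02 to 0.03) for KO serum over KO 2i + Vit. C, the seventh highest. KO serum over WT 2i + Vit. C gave 0.06 (0.04 to 0.09), the second highest after chromosome 11 at 0.10. By whole share the ratios of these 3 pairs were 0.947, 0.997 and 1.03. The WT serum library thus had the lowest chromosome 2 share of the 4 in percent, and by fragment it lay below the KO serum and the WT 2i + Vit. C library.

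The serum difference ran the length of the chromosome. Each of the 10 blocks of 20 Mb had a median between 0.12 and 0.20 on the log2 scale, and the interval over fragments lay above 0 in all 10, from 134 fragments in the last block to 1221 in the second. In 2i + Vit. C the block medians ran from -0.03 to 0.16. They were above 0 in 9 of 10 blocks, and the interval lay above 0 in 3. Blocks of the other autosomes were not worked out, so the block counts of either medium have no background and do not set chromosome 2 apart. Of the 173 chromosome 2 bins with at least 10 such fragments, 157 (90.8%) had a median above 0 in serum, against 48% of the other bins, and 105 (60.7%) had one in 2i + Vit. C, against 48.7%. A median above 0 in both media was found at 95 bins (54.9%), against 22.7%. Over these 173 bins the SD of the bin medians was 0.13 in serum and 0.22 in 2i + Vit. C.

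**Figure D5:**
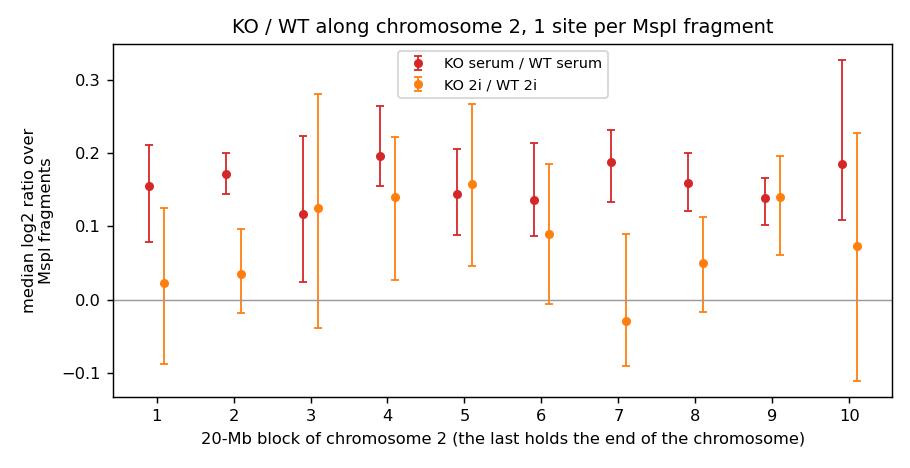
Median log2 KO/WT ratio of MspI fragments, centred within length classes, in successive 20-Mb blocks of chromosome 2, in serum (red) and 2i (orange). Bars are order-statistic 95% intervals over fragments. All 10 serum medians lie between 0.12 and 0.20, and the 2i medians lie between -0.03 and 0.16.

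Single bins were named by a fixed rule, which took the 5 highest and the 5 lowest ratios of the same sign in both media among the 304 bins with at least 100 sites in every library. Of these 304 bins, 118 had ratios above 1 in both media, 24 had ratios below 1 in both, and 162 had ratios on opposite sides of 1. The median autosomal bin itself lay on opposite sides of 1, at 0.919 in serum and 1.18 in 2i + Vit. C. These counts were not made for the other autosomes, so they do not set chromosome 2 apart. The ratios of the named bins chose them and are given as a description. The highest was bin 268 (chr2:133500001-134000000), which holds no protein-coding gene in GENCODE vM1 and is thinly covered. It had 350 reads in WT serum, 1120 in KO serum, 851 in WT 2i + Vit. C and 760 in KO 2i + Vit. C, and ratios of 2.51 and 1.96 in serum and 2i + Vit. C. A single MspI fragment of 4791 bases held 41.5% of these reads, and its leading site had 5, 211, 88 and 12 reads in the same order. Without that fragment the ratio in serum was 0.672 and in 2i + Vit. C 3.13, so the direction in serum rested on 1 fragment.

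Bin 250 (chr2:124500001-125000000) holds Slc24a5, an ion exchanger of pigment cells, Myef2, Ctxn2 and Slc12a1, the kidney sodium, potassium and chloride cotransporter. It had 4029 and 7082 reads in WT and KO serum and 6241 and 5850 in 2i + Vit. C, with ratios of 1.38 (counting interval 1.33 to 1.43) and 2.06 (1.99 to 2.14). Its leading fragment, of 119 bases, overlapped coding and untranslated exon sequence of Myef2, with its midpoint 143 bases from the start site. The leading site of this fragment had ratios of 1.78 and 2.90, and the bin without the fragment had 1.24 and 1.74. Bin 121 (chr2:60000001-60500000), with Baz2b, a bromodomain protein gene, and the endocytic receptor gene Ly75, had ratios of 1.58 and 1.33. Its leading fragment, in an exon of Baz2b, had 227 reads at its best covered site in WT serum and 606 in KO serum, and 279 and 139 in 2i + Vit. C. Without it the ratios were 1.20 and 1.44. Bin 181 (chr2:90000001-90500000), with the receptor phosphatase gene Ptprj and olfactory receptor genes, had 1.63 and 1.37, and 1.20 and 1.33 without the Ptprj fragment that supplied 50.0% of its reads. Bin 160 (chr2:79500001-80000000), with Ssfa2, Ppp1r1c and the phosphodiesterase gene Pde1a, had 1.40 and 1.37. The Pde1a intron fragment shown above went the other way in serum, with 200 reads at its leading site in WT and 188 in KO cells, a ratio of 0.746, and without it the bin reached 1.78 and 1.46. In 4 of the 5 high bins both ratios thus stayed above 1 without the leading fragment.

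Of the 5 lowest bins, 3 changed direction in at least one medium with the rule for very highly covered sites. Bin 124 (chr2:61500001-62000000) holds Tbr1, a T-box gene of the developing cortex, with Psmd14 and Slc4a10. It had ratios of 0.575 in serum and 0.696 in 2i + Vit. C. The site that led its Tbr1 fragment had 893 reads in WT serum, under that library's limit of 910, and 1554 in KO serum, over its limit of 1404, so it was dropped in KO serum only. With all sites kept, the bin's serum ratio was 1.15, and with the same sites dropped from all 4 libraries it was 0.99. The leading site of the fragment had 973 and 169 reads in WT and KO cells in 2i + Vit. C, where neither was dropped, and a ratio of 0.370. Bin 219 (chr2:109000001-109500000), with Kif18a, a mitotic kinesin gene, and Mettl15, had 0.869 and 0.350. Its leading fragment held 72.9% of the reads and was dropped only from the KO 2i + Vit. C library, where its site had 428 reads against a limit of 350. With all sites kept, the ratio in 2i + Vit. C was 1.24.

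Bin 198 (chr2:98500001-99000000), with the predicted genes Gm10800 and Gm10801, had ratios of 0.621 and 0.875. Its leading fragment, of 2359 bases, overlapped coding sequence of Gm10800. The leading site of this fragment had 906 and 186 reads in WT and KO serum, and 106 and 10060 in 2i + Vit. C. It was dropped from the KO 2i + Vit. C library only. With all sites kept, the bin's ratio was 0.239 in serum and 112 in 2i + Vit. C, and with the same sites dropped from every library it was 1.05 and 2.39. Bin 259 (chr2:129000001-129500000), with the interleukin 1 genes Il1a and Il1b, Slc20a1, Ckap2l and Sirpa, had 0.836 and 0.730. Its Sirpa fragment had 843 and 855 reads at its leading site in WT and KO serum, and 365 and 0 in 2i + Vit. C. Without it the ratios were 0.881 and 0.949. Bin 188 (chr2:93500001-94000000), with the homeobox gene Alx4, the heparan sulfate synthesis gene Ext2 and Alkbh3, had 0.829 and 0.712. The Gm13889 fragment shown above had 631 and 588 reads at its leading site in serum and 574 and 8 in 2i + Vit. C, and without it the bin had 0.866 and 0.845. Among the 5 low bins, the direction held in both media only for bins 188 and 259 under all 3 of these treatments (leading fragment left out, all sites kept, the same sites dropped everywhere).

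At the whole chromosome the limit on highly covered sites acted unevenly too. In serum, 170 chromosome 2 sites were above the limit in both libraries, 40 in WT only and 125 in KO only, whereas on the other autosomes more were above it in WT only (1646) than in KO only (552), with 1812 in both. In 2i + Vit. C the counts were 59, 66 and 464 on chromosome 2 and 689, 1289 and 4148 on the others. The sites dropped only from the KO library held 85759 reads of WT serum (1.82% of its chromosome 2 reads) and 286144 reads of WT 2i + Vit. C (4.31%), against 0.722% and 3.15% on the other autosomes. The sites dropped only from the WT library held 0.583% of the chromosome 2 reads of KO serum and 0.499% of those of KO 2i + Vit. C, against 2.39% and 0.588% on the other autosomes. With the same sites dropped from all 4 libraries, the whole-chromosome ratio was 1.12 in serum and 1.04 in 2i + Vit. C.

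The bins that hold the start sites of listed genes were then read against the same backgrounds. On chromosome 2 as a whole 13.7% of bins were high and 14% low in serum, and 46.1% and 13.4% in 2i + Vit. C, and on the other autosomes 5.94% and 29.6%, and 44.5% and 12.8%. The HoxD cluster (Hoxd1 to Hoxd13, homeobox genes that pattern limbs and trunk) lies in bin 150, which had 58169 and 85044 reads in WT and KO serum and 81692 and 25912 in 2i + Vit. C. Its ratio was 1.15 in serum and 0.698 in 2i + Vit. C. Of 10 bins with 13 other developmental regulators, 3 were high and 0 low in serum and 1 was high and 2 were low in 2i + Vit. C. The 3 high in serum held Foxa2 (1.37), an endoderm transcription factor gene, the growth factor gene Bmp2 (1.28) and Sox18 (1.26). Their ratios in 2i + Vit. C were 1.23, 1.40 and 0.9504. The bins of Pax6 (0.902) and of Notch1 and Lhx3 (0.912) were the lowest of this group in serum, with 0.898 and 0.671 in 2i + Vit. C. Six3 was in the list and was not found on chromosome 2.

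All 6 bins with the 8 imprinted genes were above the median autosomal bin in serum, as were 70.4% of all chromosome 2 bins and 48.4% of other bins, and none was past the fold, with ratios from 0.936 (Sfmbt2) to 1.10 (Gatm). In 2i + Vit. C, 2 of the 6 were high and 3 low, where 46.1% and 13.4% of all chromosome 2 bins were. Sfmbt2 had 1.32, Gatm 1.251, Gnas and Nespas 0.781, Nnat and Blcap 0.721, and H13 0.674. The stretch that matches human 20q11.21, which human pluripotent stem cells often gain in culture, covered 3 bins with H13, Tpx2, Id1, Bcl2l1, Dnmt3b, Asxl1, Kif3b and Pofut1. Its ratios were 1.08, 1.07 and 1.21 in serum and 0.674, 0.826 and 0.896 in 2i + Vit. C, and 0 of 3 were high in either medium. Dnmt3b, a de novo DNA methyltransferase gene, shared the bin at 1.21 and 0.896 with Asxl1. The 6 bins of pluripotency and DNA methylation genes ran from 1.03 (Tcfap2c) to 1.21 in serum, with Sall4 at 1.13 and Mybl2 at 1.19, and all 6 were above the median autosomal bin. In 2i + Vit. C they ran from 0.826 to 1.26, and 1 of 6 was above it, against 50% of all chromosome 2 bins. The bins of this list and of the imprinted genes were not matched to bins with like numbers of CCGG sites. The ratio in 2i + Vit. C fell with that number (Spearman rho -0.39 on chromosome 2). In WT 2i + Vit. C each bin of both lists had 12979 reads or more, above the median chromosome 2 bin (10544). Among 3 bins of chromatin genes, that of Ehmt1 (1.42), a histone H3K9 methyltransferase gene, was high in serum, with 0.866 in 2i + Vit. C. L3mbtl1 had 1.19 and 1.26, and Brd3 had 1.02 and 0.837.

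The Chr2-cl cluster, with 18 of 19 listed KRAB zinc finger protein genes matched (EtOHi1 was not), covered 7 bins, several of them with few reads. Bin 351 (chr2:175000001-175500000), with Gm14391, Gm14443 and Gm4631, had 75 and 23 reads in WT and KO serum and 92 and 1161 in 2i + Vit. C, giving the lowest serum ratio of the chromosome, 0.241, and its highest ratio in 2i + Vit. C, 27.8. Bin 353 had 1 and 9 reads in serum and 13 and 85 in 2i + Vit. C, with ratios of 7.06 and 14.4 that rest on these few reads. Bin 352 had 405, 897, 382 and 1616 reads and ratios of 1.74 and 9.31. The best covered bins of the cluster were bin 356, with Zfp931, at 1.13 and 0.640 (8063 and 11568 reads in serum) and bin 350, with Gm14393 and Gm14399, at 0.952 and 1.81. Of the 7 bins, 2 were high and 1 low in serum, and 6 were high and 1 low in 2i + Vit. C. The shares of high bins over all of chromosome 2 were 13.7% and 46.1% and elsewhere 5.94% and 44.5%, and those of low bins were 14% and 13.4%, and 29.6% and 12.8%. The genes of this cluster are near copies of each other, so reads there may be placed on the wrong copy.

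Methylation, the readout these libraries were made for, did not set chromosome 2 apart. At 31455 chromosome 2 sites with at least 10 reads in all 4 libraries, mean methylation was 25.3% in WT and 28.5% in KO serum, and 12.8% in WT and 11.0% in KO 2i + Vit. C. The differences, KO minus WT, were 3.13 and -1.78 percentage points, and at 360173 sites of the other autosomes they were 3.14 and -1.74. Among the 254 chromosome 2 bins with at least 20 such sites, methylation was lower in KO cells at 11 bins in serum (4.33%, against 5.11% elsewhere) and at 230 bins in 2i + Vit. C (90.6%, against 90.8%). Sites with at least 10 reads in both media of one genotype and no row in the other were nearly absent from chromosome 2. There were 4 covered in WT only, among 47355 covered in WT, and 0 in KO only, among 34825. The other autosomes together had 445 among 566457 and 5 among 393394. Of the 445, 375 lay on chromosome 4, which holds the deleted cluster. The remaining autosomes had 0 to 10 each of the first kind, so chromosome 2 lay within their range.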

How the data were processed

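RRBS-seq libraries from 4 samples were analysed. Per the methods and the labels, the authors cut DNA with MspI, trimmed the reads (Trim Galore), aligned them against mm9 (Bismark) and merged the strands of each CpG, with versions not given in the sources used here. The deposited tables give, for each CpG, the read count, the methylated read count and the methylated fraction, which was not used because it is their quotient. The WT serum and KO 2i + Vit. C tables are each 2 tables joined end to end. Library totals were 70149313 (WT serum), 88376738 (KO serum), 90649194 (WT 2i + Vit. C) and 42684672 (KO 2i + Vit. C) reads summed over CpG sites.

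Read counts were summed in 500-kb bins with Python 3.11.15, pandas 2.3.3 and SciPy 1.17.1 after dropping positions listed more than once (332 lines in WT serum and 830 in KO 2i + Vit. C) and the 0.1% of sites with most reads (those above 910, 1404, 1062 and 350 reads). The ratio is the KO over the WT share of the autosomal sum. Because the groups had 1 library each, bins were called low at 0.8 or less and high at the inverse of 0.8 or more, with no p-value. MspI fragments, GC content and genes came from the NCBIM37 (mm9) sequence and GENCODE vM1, and the calculations were tested on simulated data. Named bins were the 5 highest and 5 lowest by the smaller of both log2 ratios. The bins, gene lists and comparisons were chosen with earlier results of these data known. The alternatives were 12 planned settings and 4 that were chosen after seeing the data, as were the 3 treatments of the named bins. A gene was left out of the lists and is not reported here.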

Additional observations from a re-analysis of the deposited data

Results flagged for a closer look

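Divided by the median autosomal bin, the whole-chromosome ratio of chromosome 2 was 1.18 in serum and 0.875 in 2i + Vit. C, on opposite sides of 1. That median bin was 0.919 in serum, below the whole-chromosome ratio of every autosome (lowest 0.957). In 2i + Vit. C it was 1.18, above that of every autosome (highest 1.10). All autosomes thus fall on opposite sides of 1 by this measure, and it does not set chromosome 2 apart. With 1 library per group, the difference between the media was not tested. Bin 351, with Gm14391, Gm14443 and Gm4631 of the Chr2-cl cluster, had a ratio of 0.241 in serum and 27.8 in 2i + Vit. C, in opposite directions that were not tested either.

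The 0.1% of sites with most reads, which the bin ratios leave out, held a larger part of the chromosome 2 reads in KO than in WT libraries. It was 4.94% in WT and 7.51% in KO serum, and 2.24% in WT and 15.1% in KO 2i + Vit. C. Over all sites of the same libraries it was 9.10% in WT and 8.16% in KO serum, in the other direction, and 6.08% in WT and 9.06% in KO 2i + Vit. C, a smaller rise.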

How the results depend on the processing

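Among 19 autosomes, chromosome 2 had the highest median bin ratio in serum under all 16 alternatives, although division by a constant cannot move a rank. In 2i + Vit. C it was the highest under 1 of 16, with ranks down to 13. Of 128 values, 60 kept their direction and stayed near the reported value, within 1.5 times for a count and within the counting or order-statistic interval for a ratio. Those intervals are narrow, so small moves stand out. The cause of the moves was not tested. No paired analysis was possible because each group had 1 library, and leaving out a library was not possible for the same reason. Depth was lowest in KO 2i + Vit. C, at 7.53 reads per chromosome 2 site, and bins of few reads decide the extremes there. The values that moved follow, those of serum before those of 2i + Vit. C.

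With 1-Mb bins the serum median was 1.07, high bins were 20 and 62, and low bins 17 and 15, of fewer bins in all. With all sites kept the serum median was 1.07 and the whole-chromosome ratios 1.13 and 1.15, the latter with the very highly covered sites of bin 198. With sites above the 99th percentile dropped they were 1.01, 1.06 and 1.02. The whole-chromosome ratios were 1.09 and 1.03 as shares of the autosomes other than chromosome 2, and 1.08 and 1.03 at sites with a read in all 4 libraries. Division by the median autosomal bin gave medians of 1.14 and 0.997, whole-chromosome ratios of 1.18 and 0.875, 95 and 106 high bins and 29 and 90 low bins. Both ratios in 2i + Vit. C thus fell below 1, as the whole-chromosome ratio of every autosome does there by this division. The number of sites with at least 10 reads gave whole-chromosome ratios of 1.04 and 1.01, a median of 0.986 in 2i + Vit. C, below 1, 15 low bins in serum and 40 high bins in 2i + Vit. C. In bins with at least 100 sites in each library the whole-chromosome ratios were 1.09 and 1.03, the median in 2i + Vit. C 1.10, and low bins in serum 27. Without the second tables the serum median was 1.07, the whole-chromosome ratios 1.09 and 1.03, and low bins in serum 31.

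Centred within deciles of sites per bin, the medians were 1.12 and 1.01, the whole-chromosome ratios 1.12 and 0.996, high bins 94 and 98 and low bins 16 and 82. Within deciles of GC content they were 1.12 and 1.02, 1.14 and 0.970, 104 and 99, and 19 and 81. Both whole-chromosome ratios in 2i + Vit. C thereby fell below 1. Of the settings chosen after seeing the data, sites with at least 10 reads in all 4 libraries gave whole-chromosome ratios of 1.09 and 1.02, and the same very high sites dropped everywhere 1.12 and 1.04. One site per MspI fragment gave medians of 1.12 and 1.08, whole-chromosome ratios of 1.13 and 1.19, and 87 high and 21 low bins in serum. The very highly covered sites were kept in this setting, and the 1.19 included those of bin 198. Centred within length classes, 1 site per fragment gave medians over bins of 1.11 and 1.05. The medians over fragments, in place of whole-chromosome ratios, were 1.12 and 1.05. There were 22 low bins in serum and 83 high bins in 2i + Vit. C.

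Among the named bins, 9 of 60 values changed direction. Without the leading fragment, bin 268 had 0.672 in serum, bin 219 had 1.19 in 2i + Vit. C and bin 198 had 2.22 there. With all sites kept, bin 124 had 1.15 in serum, and bins 219 and 198 had 1.24 and 112 in 2i + Vit. C. With the same sites dropped everywhere, bin 198 had 1.05 in serum and 2.39 in 2i + Vit. C, where bin 219 had 1.249.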
